A study of Homo sapiens with 24 samples.

Results

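The 10 genes described here encode enzymes that make, reduce or inactivate androgens: the reductases SRD5A1 and SRD5A3, the 17-ketosteroid and 17-hydroxysteroid dehydrogenases HSD17B2, HSD17B6, HSD17B10 and HSD17B11, the isomerase HSD3B1, and the aldo-keto reductases AKR1C1, AKR1C2 and AKR1C3. They were chosen by gene symbol from the 60675 genes counted in each library, and measured values played no part in the rule. RNA-seq counts came from 24 libraries of 2 human prostate cancer cell lines. LNCaP:C4-2 is a castrate-resistant derivative of LNCaP that remains sensitive to enzalutamide, and 22Rv1 is an enzalutamide-resistant line. Cells in charcoal-stripped serum, which is poor in steroids, received either of 2 siRNA pools, siMETTL3 against the RNA m6A methyltransferase METTL3 or the non-targeting siSCR, a second transfection 48 h later, and then ethanol vehicle or the synthetic androgen R1881 at 1 nM for 72 h. Each of the 8 combinations of line, siRNA and treatment held 3 libraries. All groups shared the transfection and the steroid-poor medium, and the labels do not say whether the 3 libraries of a group were separate cultures, so p-values measure the spread between these libraries, which may be technical. In such bulk libraries a change in every cell and a change in some of the cells cannot be told apart.

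In steroid-poor conditions prostate cancer cells can make active androgens from adrenal precursors. HSD3B1 converts dehydroepiandrosterone to androstenedione, AKR1C3 reduces androstenedione to testosterone, and the steroid reductases of the SRD5A family turn testosterone into dihydrotestosterone. AKR1C2 inactivates dihydrotestosterone to androstanediol, HSD17B6 can oxidise androstanediol back, and HSD17B2 and HSD17B11 oxidise active steroids to weaker ketosteroids. R1881 itself is not made by this pathway.

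In the annotation used for counting (Ensembl release 83, GRCh38) the reductases lie at chr5:6633343-6674386 (SRD5A1, plus strand) and chr4:55346109-55373096 (SRD5A3, plus). The dehydrogenases lie at chr16:82035004-82098534 (HSD17B2, plus), chr12:56752161-56787790 (HSD17B6, plus), chrX:53431258-53434373 (HSD17B10, minus) and chr4:87336610-87391386 (HSD17B11, minus), and HSD3B1 at chr1:119507198-119515054 (plus). The AKR1C genes share a cluster at chr10:4963253-5107522 (AKR1C1, plus), chr10:4922564-5135226 (AKR1C2, minus) and chr10:5035354-5107686 (AKR1C3, plus). All values are counts over exons. Of the MANE Select transcripts, chosen as each gene's reference, 4.9% of SRD5A3, 13% of HSD17B2 and 6.6% of HSD17B11 overlap exons of another gene, 2 of them antisense genes (SRD5A3-AS1 and HSD17B2-AS1), and fragments there were not counted.

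Total counts ran from 15716224 to 21306019 fragments per library and mitochondrial genes took 3.93% to 9.73% of them. The LNCaP:C4-2 siMETTL3 vehicle replicate 1 library stood apart most, with a mean correlation of 0.987 with the other libraries of its group and a mitochondrial share of 9.60%, against 6.89% and 7.03% in those libraries. LNCaP:C4-2 siSCR R1881 replicate 1 (7.08% against 9.73% and 9.69%) and 22Rv1 siMETTL3 vehicle replicate 1 (7.45% against 5.27% and 5.04%) also differed from the rest of their groups. Results that change without these libraries are given both ways. The 22Rv1 siSCR vehicle replicate 3 library also correlated less with its group (0.991, against 0.993 and 0.994 for the others). HSD17B10 and HSD17B11 values without it are given below. In 22Rv1 the mitochondrial share was lower with R1881 (4.96% to 5.28% against 6.12% to 6.90% in siSCR libraries, 3.93% to 4.24% against 5.04% to 7.45% in siMETTL3 libraries), and its part in the R1881 results was not tested. The luminal genes HOXB13, FOLH1, KRT8, KRT18, KLK3 and EPCAM were counted in all 24 libraries, with EPCAM between 86.6 and 154 CPM (a gene's count corrected for the TMM-scaled depth of its library). Of the markers of other cell types, the 3 basal and 3 leukocyte genes held at most 28 counts in a library, as did COL1A2 and DCN of the stroma. COL1A1 reached 71.9 CPM in LNCaP:C4-2, the neuroendocrine gene SYP 119 CPM in 22Rv1, where CHGA was at most at 1.3 CPM, and ACTA2 50 counts. Their part in the results was not tested. METTL3 fell in all 4 siMETTL3 comparisons, from 28.7 ± 2.35 to 19 ± 1.36 CPM (SD, n = 3) in LNCaP:C4-2 with vehicle and from 50.4 ± 1.46 to 22.4 ± 2.01 CPM in 22Rv1 with R1881. Its log2 fold change lay between −1.18 and −0.57 (edgeR adjusted p 1.29e-08 to 0.0256), and in each comparison the siMETTL3 libraries all lay below the siSCR libraries (exact two-sided permutation p = 0.1, the smallest that 3 against 3 libraries allow). Of the METTL3 transcript 17.4% overlaps exons of TOX4 and was not counted.

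The cell lines differed most in the aldo-keto reductases. In siSCR vehicle libraries AKR1C2 held 2, 7 and 0 counts in LNCaP:C4-2 and 6377, 6959 and 7272 counts in 22Rv1. AKR1C1, which inactivates progesterone, held 6, 6 and 2 counts in LNCaP:C4-2 and 1205, 1349 and 1340 in 22Rv1. Both genes were at the edge of detection in LNCaP:C4-2, and no library of one line overlapped the other. The share of all genes that separate the lines in this way is not given, so the separation is no sign that either gene stands out. The log2 difference of 22Rv1 from LNCaP:C4-2 was 11.05 for AKR1C2 (SE 0.217, edgeR adjusted p = 5.73e-24) and 8.03 for AKR1C1 (SE 0.204, edgeR adjusted p = 4.97e-22). The size of the AKR1C2 difference rests on few LNCaP:C4-2 counts: it was 12.53 without LNCaP:C4-2 siSCR vehicle replicate 2 and 10.54 without replicate 3. HSD17B11, a lipid droplet enzyme that acts on androstanediol, was also higher in 22Rv1, at 86.3, 102.9 and 121 CPM against 10.2, 9.39 and 11.97 CPM, a log2 difference of 3.30 (SE 0.129, edgeR adjusted p = 3.63e-18). Over all 19437 genes tested 73.9% differed between the lines at an adjusted p under 0.05, and 7 of the 8 members tested did, 5 higher and 2 lower in 22Rv1, a count near that background. Of the 5, AKR1C1, AKR1C2 and AKR1C3 had too few counts to be tested within LNCaP:C4-2. They entered this test only through their 22Rv1 counts, which set their direction in advance.

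The reductases differed far less between the lines, and in opposite directions. SRD5A1 was lower in 22Rv1, at 33.3 ± 2.26 against 54.3 ± 2.54 CPM (log2 difference −0.705, SE 0.087, edgeR adjusted p = 5.70e-08). SRD5A3, an enzyme of dolichol synthesis to which steroid reduction has also been ascribed, was higher in 22Rv1, at 45.9 ± 6.61 against 33.3 ± 2.25 CPM (log2 difference 0.46, SE 0.105, edgeR adjusted p = 0.000314). HSD17B10, a mitochondrial dehydrogenase that also serves in isoleucine breakdown and in the processing of mitochondrial transfer RNAs, was lower in 22Rv1 (65.9 ± 7.87 against 91.6 ± 9.64 CPM, log2 difference −0.475, edgeR adjusted p = 0.00612). Its call was lost with library size alone as the scaling (−0.32, edgeR adjusted p = 0.0583) and without 22Rv1 siSCR vehicle replicate 3 (−0.33, adjusted p = 0.0702). HSD17B6 was at 2.33 ± 0.292 CPM in 22Rv1 and 1.67 ± 0.0675 CPM in LNCaP:C4-2, a log2 difference of 0.48 (SE 0.247) that did not pass (edgeR adjusted p = 0.0811). It passed under 4 of 6 alternatives (adjusted p from 0.0259), DESeq2 among them (0.57, adjusted p = 0.0497).

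HSD17B2 and HSD3B1 were at or near 0 counts in both lines. HSD17B2 held 0 to 2 counts in the 24 libraries. HSD3B1 held 1 to 4 counts in each of the 12 LNCaP:C4-2 libraries and 0 in each of the 12 22Rv1 libraries, where a count of 0 allows a level of up to 0.191 CPM in the smallest library. Both stayed under the filter on low counts and were not tested. The filter was passed by 5 members in LNCaP:C4-2 and 8 in 22Rv1.

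AKR1C3 could not be read from these counts. It held 0 to 1 counts in LNCaP:C4-2 libraries and 3 to 20 in 22Rv1 libraries. In siSCR vehicle libraries the sums were 1 and 38 counts, a ratio of 40.5 (95% exact interval 6.84 to 1640, counting error only) that passed the test between the lines (edgeR adjusted p = 0.000291). AKR1C3 entered that test only through its 22Rv1 counts. In the Ensembl release 83 annotation used for counting, a second gene without a symbol (ENSG00000282883) covers 907 of the 1186 bases of the MANE Select transcript of AKR1C3 (76.5%). Fragments on both genes were dropped, and ENSG00000282883 held 0 counts in all 24 libraries. On that transcript 279 bases remained on which AKR1C3 alone could be counted. Over all annotated exons of AKR1C3, 991 of 4532 bases were shared with other genes (21.87%). Counts per gene do not show which exons they came from. These counts give no level of AKR1C3, and its R1881 and siMETTL3 comparisons enter only the counts of members tested.

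**Figure D1:**
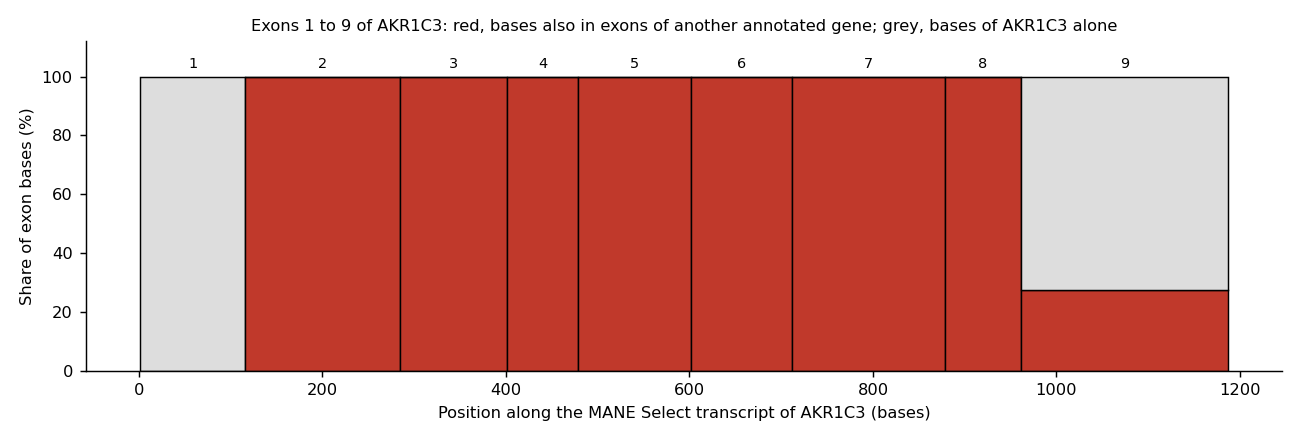
Exons 1 to 9 of the MANE Select transcript of AKR1C3 along its 1186 bases (x axis) and the share of each exon's bases that also lies in exons of another annotated gene (y axis, red). Exons 2 to 8 were covered in full and exon 9 for 27.4%, so of this transcript only exon 1 and most of exon 9 could give counts. Annotated exons of AKR1C3 outside this transcript are not drawn.

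In FPKM, which divides CPM by the length of a gene's exons in kilobases so that genes can be compared, the order of the members differed between the lines. In LNCaP:C4-2 siSCR vehicle libraries HSD17B10 led with 82.2 ± 8.65 FPKM, followed by SRD5A3 (7.53 ± 0.508) and SRD5A1 (7.03 ± 0.328), whose ranges overlapped, then HSD17B11 (4.31 ± 0.545) and HSD17B6 (0.733 ± 0.0297). The means of HSD3B1, AKR1C1, AKR1C2 and HSD17B2 were below 0.06 FPKM. In 22Rv1 HSD17B10 (59.1 ± 7.06 FPKM), AKR1C2 (54.7 ± 4.91) and HSD17B11 (42.4 ± 7.03) led with ranges that overlapped between neighbours, followed by SRD5A3 (10.4 ± 1.5), AKR1C1 (7.84 ± 0.656), SRD5A1 (4.31 ± 0.293) and HSD17B6 (1.03 ± 0.128). The place of AKR1C2 depended on the length used, since over its MANE Select transcript it stood at 114 ± 10.2 FPKM and HSD17B10 at 69.1 ± 8.25. Within the pair, AKR1C2 exceeded AKR1C1 per length under either length (10.6 ± 0.885 FPKM for AKR1C1 over its MANE Select transcript).

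**Figure D2:**
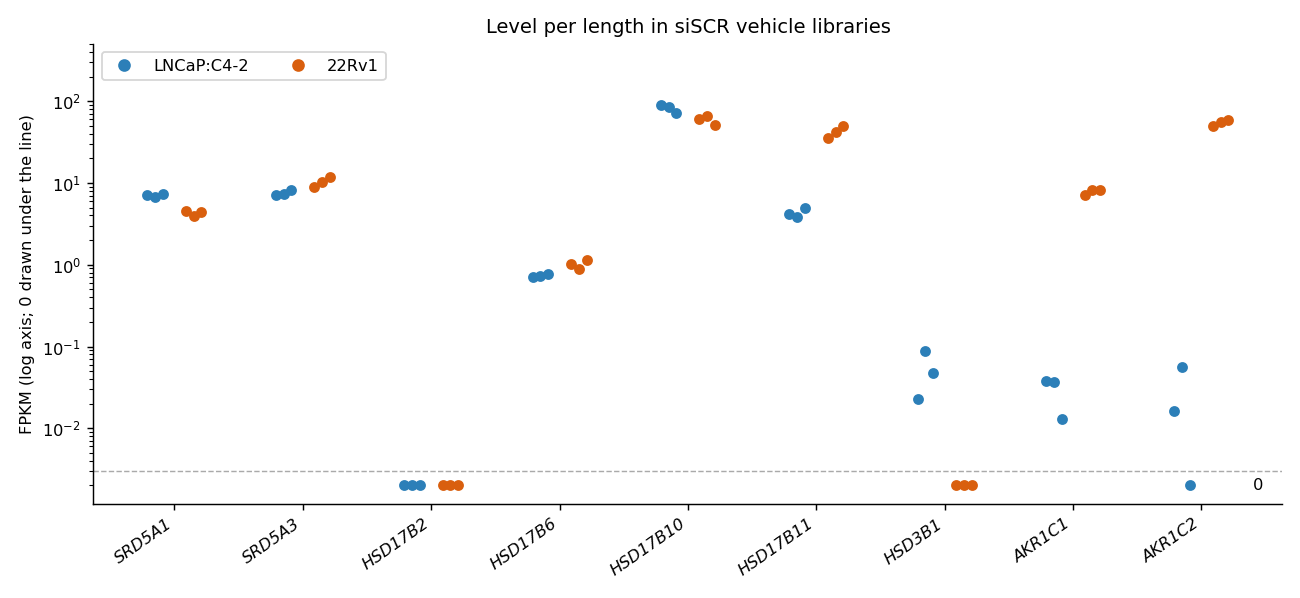
FPKM of 9 members, all but AKR1C3 (log axis), in the 3 siSCR vehicle libraries of LNCaP:C4-2 (blue) and 22Rv1 (orange), with values of 0 drawn under the dashed line. AKR1C1 and AKR1C2 were under 0.06 FPKM in LNCaP:C4-2 and at 7.84 and 54.7 FPKM on average in 22Rv1. SRD5A1, SRD5A3, HSD17B6 and HSD17B10 differed far less between the lines, though SRD5A1, SRD5A3 and HSD17B10 passed the test between them.

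The opposite R1881 responses of AKR1C1 and AKR1C2 described next concern genes of nearly one sequence. Both lie on chromosome 10, AKR1C1 on the plus strand and AKR1C2 on the minus strand, and their coding sequences were identical at 950 of 969 positions (98.0%), against 91.4% for AKR1C1 and AKR1C3. The 250 bases before their RefSeq starts were also near-identical: 245 of 245 aligned positions matched. They are shown because the genes had R1881 responses of opposite sign. The RefSeq windows (GRCh38.p14) are chr10:4963165-4963414 on the plus strand for AKR1C1, chr10:5003858-5004107 on the minus strand for AKR1C2 and chr10:5094164-5094413 on the plus strand for AKR1C3. Capitals mark the bases outside the match between AKR1C1 and AKR1C2, 5 in each, and for AKR1C3 the 72 bases not shared with AKR1C1.
AKR1C1: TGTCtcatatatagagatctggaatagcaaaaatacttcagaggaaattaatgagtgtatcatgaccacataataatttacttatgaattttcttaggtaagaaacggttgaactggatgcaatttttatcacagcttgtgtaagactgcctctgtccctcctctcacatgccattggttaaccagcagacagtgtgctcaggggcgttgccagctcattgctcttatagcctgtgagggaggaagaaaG
AKR1C2: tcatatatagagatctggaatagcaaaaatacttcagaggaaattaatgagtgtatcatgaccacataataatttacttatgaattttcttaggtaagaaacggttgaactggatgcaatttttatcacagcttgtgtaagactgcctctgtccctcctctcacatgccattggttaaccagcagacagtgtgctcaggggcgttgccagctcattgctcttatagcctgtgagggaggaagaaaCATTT
AKR1C3: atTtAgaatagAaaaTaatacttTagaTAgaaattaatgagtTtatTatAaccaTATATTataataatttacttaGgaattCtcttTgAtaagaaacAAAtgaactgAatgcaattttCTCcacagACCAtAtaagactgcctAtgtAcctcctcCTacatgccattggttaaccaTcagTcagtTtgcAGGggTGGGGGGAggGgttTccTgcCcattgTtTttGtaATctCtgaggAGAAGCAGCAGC

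The antioxidant element TGACNNNGC, which NRF2 binds, was searched on both strands of the RefSeq windows of 250 bases before to 50 after each start. It occurred in 13.35% of 35116 windows and, among the 8 members with a window, in that of SRD5A3 (chr4:55345992-55346291). A match describes letters in a short window and says nothing of binding.

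In 22Rv1 R1881 raised AKR1C2, while AKR1C1 was lower with R1881 by less than 1.5-fold. AKR1C2 rose in siSCR libraries from 331, 372 and 396 CPM with vehicle to 589, 558 and 566 CPM with R1881. AKR1C1 stood at 62.6, 72.2 and 73.0 CPM with vehicle and at 50.8, 52.5 and 55.7 CPM with R1881. For both genes the R1881 libraries lay apart from the vehicle libraries, above for AKR1C2 and below for AKR1C1. Here and below, the share of all genes whose groups lie apart in this way is not given. Such separation is therefore no sign that a member stands out from other genes. The log2 fold change was 0.63 for AKR1C2 (SE 0.069, edgeR adjusted p = 2.96e-07) and −0.39 for AKR1C1 (SE 0.083, edgeR adjusted p = 0.000935), which stayed under the 1.5-fold threshold required for a call. Treatment and siRNA comparisons were called only where the adjusted p was under 0.05 and the log2 value reached 0.585, which is 1.5-fold, and comparisons of the lines or of responses by the adjusted p alone. In siMETTL3 libraries AKR1C2 rose by 0.585 (SE 0.069, edgeR adjusted p = 9.50e-07), at the threshold itself, and AKR1C1 moved by −0.26 (SE 0.082, edgeR adjusted p = 0.0177), again under it. The AKR1C2 call fell below 1.5-fold without 22Rv1 siSCR vehicle replicate 1 (0.565) or with library size alone (0.574) in siSCR libraries. In siMETTL3 libraries it did so without 22Rv1 siMETTL3 vehicle replicate 2 (0.541) or R1881 replicate 1 (0.573), and under 3 other settings (0.525 to 0.573).

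The share of AKR1C1 among the fragments of the pair does not depend on scaling between libraries. In 22Rv1 siSCR libraries it was 15.89%, 16.24% and 15.56% with vehicle and 7.95%, 8.59% and 8.96% with R1881. In siMETTL3 libraries it was 16.89%, 17.87% and 17.03% with vehicle and 9.50%, 11.24% and 10.42% with R1881. The R1881 libraries lay below the vehicle libraries in both siRNA groups. The sum of the pair rose from 435.9 ± 38.5 to 624 ± 14.5 CPM in siSCR libraries, so the falling share went with a rising total. Part of each transcript cannot be told from the other gene: of all stretches of 100 bases, 12.65% of the AKR1C1 transcript and 27.76% of the AKR1C2 transcript also occur in the transcript of another gene, and fragments that align to several places were dropped. In LNCaP:C4-2 the pair summed to at most 1.16 CPM, with 2 to 13 counts of AKR1C1 and 0 to 8 of AKR1C2, and no share is given for it.

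**Figure D3:**
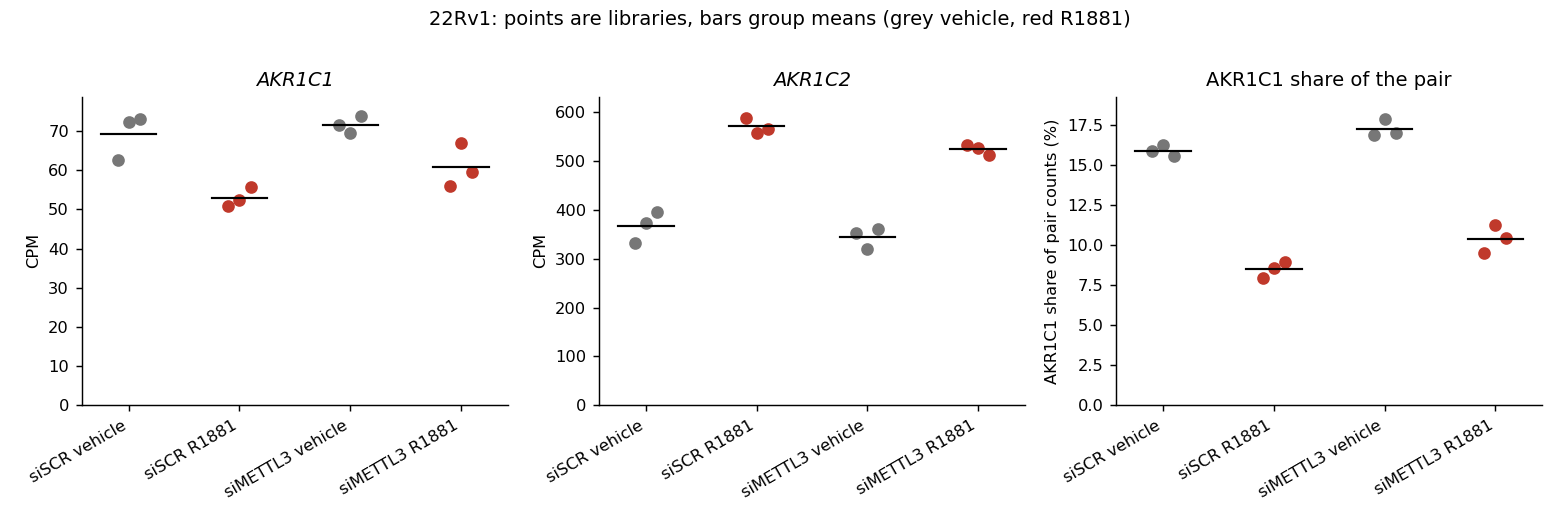
CPM of AKR1C1 (left) and AKR1C2 (middle), and the share of AKR1C1 among the counts of both genes (right, percent), in the 12 22Rv1 libraries (points) with group means (bars), grey for vehicle and red for R1881. AKR1C2 was higher and AKR1C1 lower with R1881, and the mean share went from 15.9% to 8.5% in siSCR libraries and from 17.3% to 10.4% in siMETTL3 libraries.

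Counted over all members, R1881 called few of them. In LNCaP:C4-2 1 of 5 tested members was called in siSCR libraries (HSD17B11, higher) beside 15.1% of the 16435 genes tested, and 2 of 5 in siMETTL3 libraries (SRD5A3 lower, HSD17B6 higher) beside 10.6%. In 22Rv1 1 of 8 was called in siSCR libraries (AKR1C2, higher) beside 13.8% of the 17865 genes tested, and 3 of 8 in siMETTL3 libraries (HSD17B11 and AKR1C2 higher, HSD17B6 lower) beside 13.5%. With so few members these counts do not set the group apart from other genes. The median log2 fold change of the tested members was 0.28 and 0.23 in LNCaP:C4-2 and 0.14 and 0.09 in 22Rv1, for siSCR and siMETTL3 libraries, beside medians of all genes between −0.03 and 0.00. The comparisons within a line share libraries and are not independent of each other.

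HSD17B11 was called higher with R1881 in LNCaP:C4-2 siSCR libraries and in 22Rv1 siMETTL3 libraries. In LNCaP:C4-2 siSCR libraries it went from 10.2, 9.39 and 11.97 to 17.1, 18.7 and 20.4 CPM, with no overlap. The log2 fold change was 0.83 (SE 0.151, edgeR adjusted p = 0.000856). In LNCaP:C4-2 siMETTL3 libraries, at 12.9, 8.82 and 10.9 CPM with vehicle and 14.1, 12.9 and 15.02 CPM with R1881, the groups overlapped, and the value of 0.38 did not pass (SE 0.152, edgeR adjusted p = 0.104). Without LNCaP:C4-2 siMETTL3 vehicle replicate 1 it was 0.515 (edgeR adjusted p = 0.0286), still under 1.5-fold. In 22Rv1 the gene stood at 86.3, 102.9 and 121 CPM with vehicle and 143, 152 and 162 CPM with R1881 in siSCR libraries, and at 94.8, 88.2 and 94.3 against 141, 153 and 151 CPM in siMETTL3 libraries. The R1881 libraries were higher without overlap in both. The increase was 0.56 on the log2 scale in siSCR libraries (SE 0.090, edgeR adjusted p = 5.22e-05), just under the fold threshold, and 0.66 in siMETTL3 libraries (SE 0.090, edgeR adjusted p = 6.40e-06), which was called. The former was also called without 22Rv1 siSCR vehicle replicate 3 (0.68) or 22Rv1 siSCR R1881 replicate 1 (0.60).

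HSD17B6, which returns androstanediol to dihydrotestosterone, had R1881 responses of opposite sign in the lines, at low counts. In LNCaP:C4-2 siSCR libraries it held 29, 31 and 30 counts with vehicle and 33, 63 and 52 with R1881, and in siMETTL3 libraries 26, 21 and 20 against 51, 40 and 59. In 22Rv1 siSCR libraries it held 45, 38 and 48 counts with vehicle and 35, 27 and 38 with R1881, and in siMETTL3 libraries 46, 57 and 55 against 30, 25 and 27. On the CPM scale the groups did not overlap in any of the 4 pairs, higher with R1881 in LNCaP:C4-2 and lower in 22Rv1. How many of all genes separate like this is not given. The log2 fold change in LNCaP:C4-2 was 0.80 in siSCR libraries (SE 0.285, edgeR adjusted p = 0.0535), which did not pass, and 1.15 in siMETTL3 libraries (SE 0.295, edgeR adjusted p = 0.0135). In 22Rv1 it was −0.37 (SE 0.222, edgeR adjusted p = 0.209) and −0.71 (SE 0.224, edgeR adjusted p = 0.018). The difference of the siSCR responses, 22Rv1 minus LNCaP:C4-2, was −1.17 (SE 0.345, edgeR adjusted p = 0.0194), and was no longer past the threshold without LNCaP:C4-2 siSCR R1881 replicate 2 (−0.92, adjusted p = 0.0629) or 22Rv1 siSCR R1881 replicate 2 (−1.07, adjusted p = 0.0523).

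The call of HSD17B6 in LNCaP:C4-2 siMETTL3 libraries was lost without vehicle replicate 2 (HSD17B6 1.075, edgeR adjusted p = 0.0527), vehicle replicate 3 (1.047, 0.0538) or R1881 replicate 3 (1.01, 0.0567). That in 22Rv1 siMETTL3 libraries was lost without vehicle replicate 3 (−0.63, edgeR adjusted p = 0.0635), R1881 replicate 2 (−0.64, 0.073) or R1881 replicate 3 (−0.66, 0.0655). In LNCaP:C4-2 siSCR libraries HSD17B6 was called by DESeq2 (0.81, adjusted p = 0.0425) and without R1881 replicate 1 (1.03, edgeR adjusted p = 0.0146), and was 0.48 without R1881 replicate 2.

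SRD5A3 was lower with R1881 in LNCaP:C4-2 and close to level in 22Rv1. In LNCaP:C4-2 siMETTL3 libraries it fell from 41.98, 37.4 and 34.4 to 21.7, 24.04 and 25.96 CPM, and in siSCR libraries it stood at 31.7, 32.4 and 35.9 against 23.9, 27.1 and 26.2 CPM. No R1881 library reached a vehicle library of its pair. The log2 fold change of −0.65 in siMETTL3 libraries was called (SE 0.115, edgeR adjusted p = 0.000889), though not without LNCaP:C4-2 siMETTL3 vehicle replicate 1, the library that stood apart (−0.58, adjusted p = 0.00204). The value of −0.38 in siSCR libraries passed at adjusted p = 0.0244 (edgeR, SE 0.115) but stayed under 1.5-fold, and was −0.31 without LNCaP:C4-2 siSCR R1881 replicate 1 (edgeR adjusted p = 0.0828). In 22Rv1, at 45.9 ± 6.61 and 49.1 ± 2.86 CPM in siSCR libraries, the log2 value was 0.09 (edgeR adjusted p = 0.481), and in siMETTL3 libraries 0.005 (0.975). The responses of the lines differed by 0.47 in siSCR libraries (SE 0.149, edgeR adjusted p = 0.0296), a call that remained in 3 of the 12 fits that left out 1 library (0.348 to 0.507) and was lost with RLE scaling (0.41, adjusted p = 0.0577) and without a filter (0.475, 0.0613). The 3 libraries whose absence kept it were LNCaP:C4-2 siSCR vehicle replicate 2, 22Rv1 siSCR vehicle replicate 3 and 22Rv1 siSCR R1881 replicate 1.

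SRD5A1, the reductase of steroids present in both lines, moved the same way in all 4 comparisons but by less than 1.5-fold. It stood at 54.3 ± 2.54 and 66.5 ± 3.26 CPM in LNCaP:C4-2 siSCR libraries and at 33.3 ± 2.26 and 39.5 ± 3.52 CPM in 22Rv1 siSCR libraries, with vehicle and R1881. The log2 fold changes of 0.28 and 0.24 passed the adjusted p (edgeR, 0.0332 and 0.0412), and those of 0.21 and 0.17 in siMETTL3 libraries did not (0.14 and 0.149). For SRD5A1 neither siSCR value passed with library size alone (0.167 and 0.179, edgeR adjusted p = 0.174 and 0.122). The adjusted p rose to as much as 0.132 without LNCaP:C4-2 siSCR vehicle replicate 2 and 0.211 without 22Rv1 siSCR R1881 replicate 3. The R1881 libraries were higher without overlap in all 4 pairs. This adds no support to the values, since the share of all genes that separate in this way is not given. HSD17B10 was at 91.6 ± 9.64 and 86.6 ± 15.4 CPM in LNCaP:C4-2 siSCR libraries, and its 2 values in LNCaP:C4-2 did not pass (−0.09 and 0.23, edgeR adjusted p = 0.736 and 0.39). Without LNCaP:C4-2 siMETTL3 vehicle replicate 1, whose 64.3 CPM compares with 102.9 and 109 CPM in its group, the second was 0.02, and without LNCaP:C4-2 siSCR R1881 replicate 1 (104 against 76.6 and 78.8 CPM) the first was −0.23. In 22Rv1 HSD17B10 was 0.18 higher in siSCR libraries (edgeR adjusted p = 0.201) and 0.35 higher in siMETTL3 libraries (edgeR adjusted p = 0.0112), both under 1.5-fold. Without 22Rv1 siMETTL3 vehicle replicate 1 (61.1 against 79.7 and 80.5 CPM) the latter was 0.23 (edgeR adjusted p = 0.062).

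**Figure D4:**
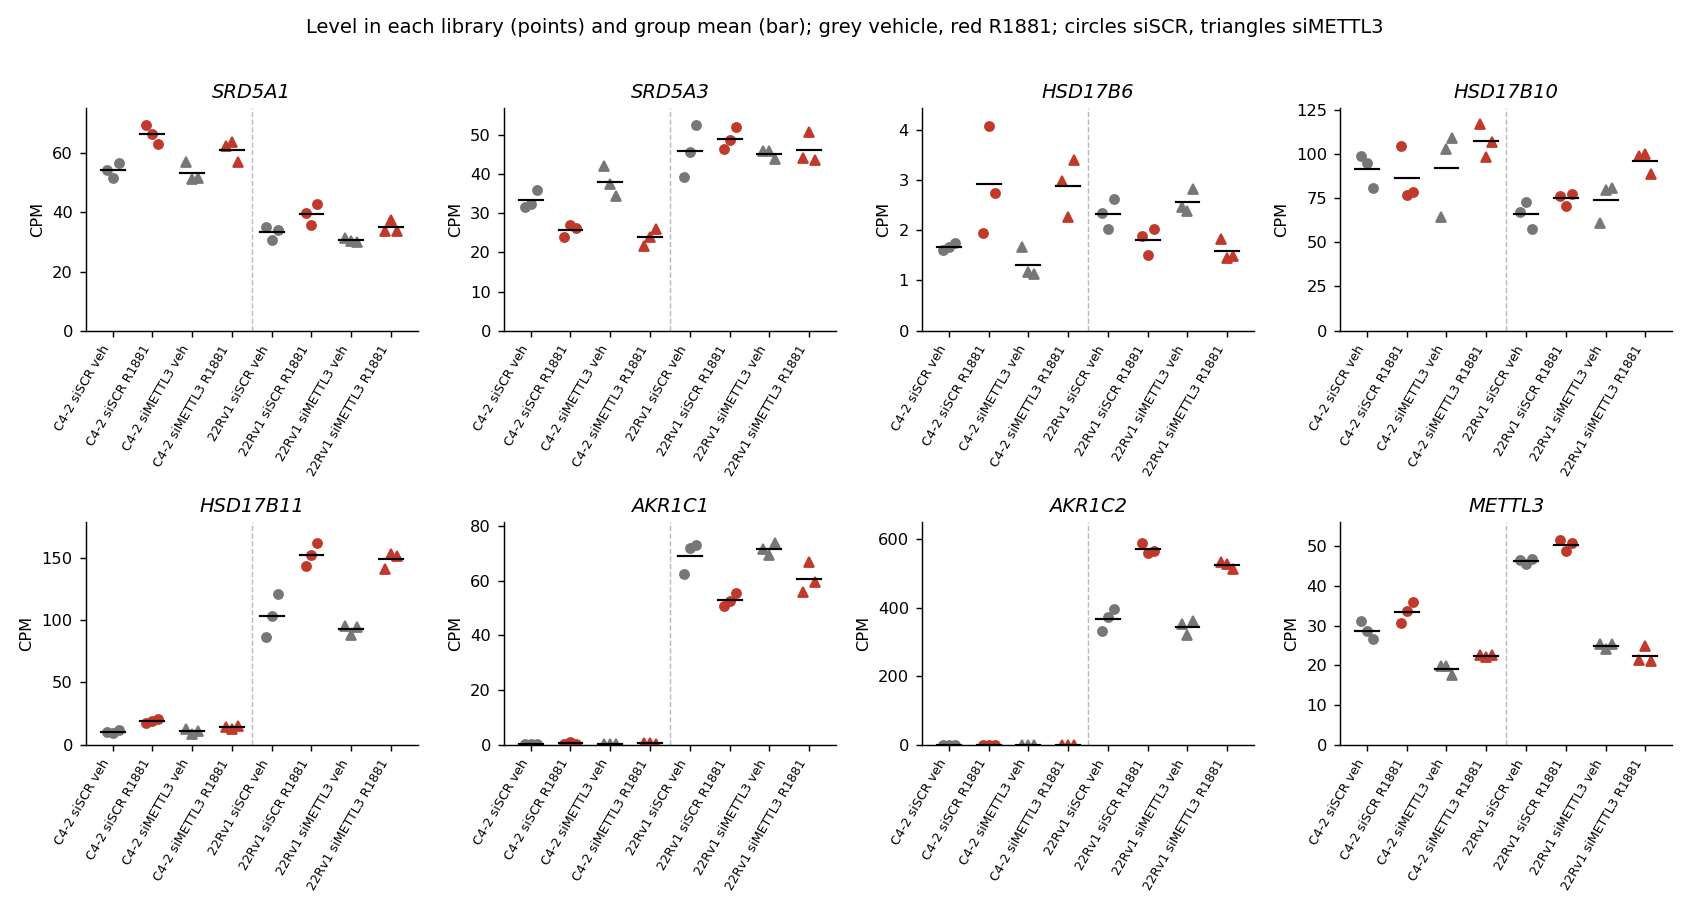
CPM of 7 members and METTL3 in each of the 24 libraries (points) with group means (bars), grey for vehicle and red for R1881, circles for siSCR and triangles for siMETTL3, LNCaP:C4-2 to the left of the dashed line. METTL3 is lower in every siMETTL3 group, HSD17B11 is higher with R1881 on average in both lines, and HSD17B6 lies higher with R1881 in LNCaP:C4-2 and lower in 22Rv1.

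Whether the lines responded differently to R1881 was tested for 8 members in siSCR libraries. Besides SRD5A3 and HSD17B6, the call reached AKR1C1 (difference −1.28, SE 0.436, edgeR adjusted p = 0.0426), so that 3 of 8 passed beside 16.8% of 19437 genes. AKR1C1, AKR1C2 and AKR1C3 had too few counts to be tested within LNCaP:C4-2 and entered this test only through their 22Rv1 counts. With so few members the count does not set the group apart from other genes. For AKR1C1 the LNCaP:C4-2 side rests on 2 to 6 counts with vehicle and 5 to 13 with R1881, and without LNCaP:C4-2 siSCR R1881 replicate 2 the difference of AKR1C1 was −0.80 (edgeR adjusted p = 0.393). It was also lost without LNCaP:C4-2 siSCR vehicle replicate 3 (−0.97), 22Rv1 siSCR vehicle replicate 2 (−1.27), 22Rv1 siSCR R1881 replicate 1 (−1.27) or replicate 2 (−1.29), and without a filter (−1.28, edgeR adjusted p = 0.0733). HSD17B11 did not differ past the threshold (−0.28, SE 0.171, edgeR adjusted p = 0.31), nor did SRD5A1 (−0.05, SE 0.122, adjusted p = 0.87).

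No member was called after siMETTL3. The knockdown was partial, with METTL3 changed by −33.8% and −32.8% in LNCaP:C4-2 (vehicle and R1881) and by −46.1% and −55.5% in 22Rv1. In LNCaP:C4-2 with R1881 the log2 fold change of METTL3 itself, −0.569, stayed under 1.5-fold. The absence of calls therefore does not show that the members are insensitive to a loss of METTL3. None of the 5 members tested in LNCaP:C4-2 was called with vehicle (edgeR, beside 1.2% of all genes) or with R1881 (0.7%), and none of the 8 tested in 22Rv1 with vehicle (0.202%) or with R1881 (3.29%). DESeq2 called none either, and at an unadjusted p under 0.05 (edgeR) the numbers were 0, 1, 0 and 3. Of all genes, 2636 and 4702 of 16435 in LNCaP:C4-2 had such a p, with vehicle and with R1881. In 22Rv1 it was 2604 and 5712 of 17865, so these numbers do not set the members apart from other genes. The 1 was HSD17B11 in LNCaP:C4-2 with R1881, at 14.1, 12.9 and 15.02 CPM in siMETTL3 libraries against 17.1, 18.7 and 20.4 CPM in siSCR libraries. These did not overlap, and the log2 fold change of −0.42 (SE 0.148) gave an adjusted p of 0.102 (edgeR). Without LNCaP:C4-2 siSCR R1881 replicate 1 it was −0.50 (edgeR adjusted p = 0.0401), still under 1.5-fold. The 3 were HSD17B10, SRD5A1 and AKR1C1 in 22Rv1 with R1881. HSD17B10 stood at 98.9, 99.96 and 88.7 CPM against 76.5, 70.8 and 77.4 CPM, a log2 fold change of 0.34 (SE 0.103, edgeR adjusted p = 0.0295) that was under 1.5-fold. With 1 library left out this HSD17B10 value lay between 0.298 and 0.395, and its edgeR adjusted p between 0.0369 and 0.128. SRD5A1 was at −0.19 (edgeR adjusted p = 0.148) and AKR1C1 at 0.18 (0.138). AKR1C2 with R1881 was at 512 to 533 CPM in siMETTL3 libraries and 558 to 589 CPM in siSCR libraries, which did not overlap, and its value of −0.14 (SE 0.069) did not pass (edgeR adjusted p = 0.167).

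The R1881 response did not differ between the siRNA pools past the threshold for any member. The interaction called 0 of 5 members in LNCaP:C4-2 and 0 of 8 in 22Rv1 (edgeR, beside 0% and 0.0168% of all genes). DESeq2 also called 0 members in either line, and 60 of all genes in LNCaP:C4-2. At an unadjusted p under 0.05 (edgeR) there were 0 members in either line, beside 2037 of 16435 and 1101 of 17865 genes. The member nearest to the threshold was HSD17B11 in LNCaP:C4-2, with a log2 interaction of −0.445 (siMETTL3 response minus siSCR response, SE 0.214, edgeR adjusted p = 0.409). The lines also did not differ past the threshold in the effect of siMETTL3 with vehicle (0 of 8 members by edgeR and DESeq2, beside 0.458% of all genes by edgeR). At an unadjusted p under 0.05 (edgeR) it was 0 of 8 members beside 2240 of 19437 genes.

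**Figure D5:**
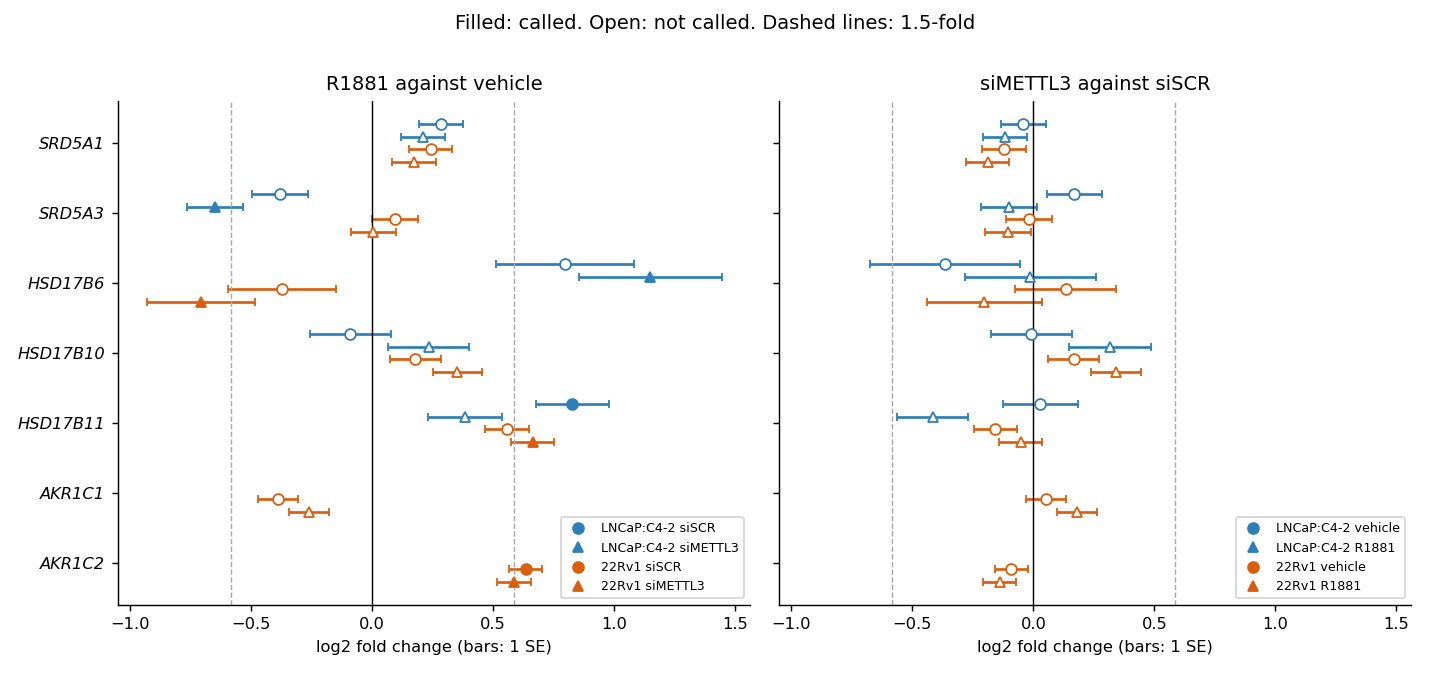
Log2 fold change with 1 SE (bars) for R1881 against vehicle (left) and siMETTL3 against siSCR (right), LNCaP:C4-2 in blue and 22Rv1 in orange, filled symbols for called values and dashed lines at 1.5-fold. The 7 filled values are all R1881 responses, HSD17B6 lies on opposite sides of 0 in the lines, and AKR1C1 and AKR1C2 on opposite sides in 22Rv1.

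Of 38 other genes of steroid metabolism, from cholesterol import to sulfation, 23 were tested in LNCaP:C4-2 and 25 in 22Rv1. R1881 raised 3 and lowered 1 in LNCaP:C4-2 siSCR libraries (4 and 1 with siMETTL3), and raised 2 and lowered 2 in 22Rv1 siSCR libraries (3 and 2 with siMETTL3). Of all genes it raised 7.39% and lowered 7.72% in LNCaP:C4-2 siSCR libraries (5.09% and 5.54% with siMETTL3). In 22Rv1 siSCR libraries it raised 4.19% and lowered 9.64% (4.18% and 9.29% with siMETTL3). With so few genes the counts do not set the list apart from other genes. The median log2 fold change of the tested list genes was 0.13 in LNCaP:C4-2 and −0.09 in 22Rv1 siSCR libraries, beside −0.03 and 0.00 for all genes. CYP11A1, which cleaves the cholesterol side chain in the first step of steroid synthesis, rose in LNCaP:C4-2 from 0.542 ± 0.234 to 18.9 ± 9.56 CPM (log2 5.10, SE 0.422, edgeR adjusted p = 3e-07) and was at 0 counts in all 12 22Rv1 libraries. AKR1D1, a steroid reductase of bile acid synthesis, rose from 0.0193 ± 0.0334 to 4.77 ± 0.369 CPM in LNCaP:C4-2 (edgeR adjusted p = 5.3e-07) and in 22Rv1 from 0 counts to 1.02 ± 0.303 CPM (edgeR adjusted p = 1.26e-05), the latter added after its value was seen. In 22Rv1 SULT1E1, an estrogen sulfotransferase, fell from 4.16 ± 0.340 to 0.431 ± 0.186 CPM (log2 −3.25, SE 0.284, edgeR adjusted p = 9.47e-09). PAPSS2, which makes the sulfate donor of such enzymes, rose there from 78.4 ± 6 to 238 ± 6.38 CPM (log2 1.60, SE 0.1, edgeR adjusted p = 3.55e-11).

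Several steps of the pathway had few counts, which is described here for genes named after their values were seen. CYP17A1, which makes the adrenal and testicular androgen precursors, held 0 to 14 counts in LNCaP:C4-2 and 0 to 3 in 22Rv1. SRD5A2 held at most 7 counts, HSD17B3, the testicular enzyme that reduces androstenedione, 0 to 5 in LNCaP:C4-2 and 10 to 30 in 22Rv1, and AKR1C4 0 in LNCaP:C4-2 and 12 to 30 in 22Rv1. Of the 23 of these 38 genes tested in LNCaP:C4-2, siMETTL3 called none with vehicle or R1881, beside 1.2% and 0.7% of all genes. Of the 25 tested in 22Rv1 it called none with vehicle (beside 0.202%) and 2 with R1881 (beside 3.29%), both higher. SULT1E1 stood at 0.927 ± 0.155 against 0.431 ± 0.186 CPM (log2 1.07, edgeR adjusted p = 0.0471). HSD17B14, named after its value was seen, stood at 8.24 ± 0.699 against 5.17 ± 0.787 CPM (log2 0.66, edgeR adjusted p = 0.0246).

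Other lists were counted beside the members. Of all genes R1881 called 15.1% in LNCaP:C4-2 siSCR libraries and 10.6% in siMETTL3 libraries, and 13.8% and 13.5% in 22Rv1. The siMETTL3 comparisons called 1.2% and 0.7% in LNCaP:C4-2 with vehicle and R1881, and 0.202% and 3.29% in 22Rv1. The difference of the lines in the siMETTL3 effect with vehicle called 0.458%. Of 7 androgen-responsive genes R1881 raised all 7 in LNCaP:C4-2 (median log2 4.08 and 3.93) and 2 of 6 tested in 22Rv1 (FKBP5 and STEAP4, median 0.015 and 0.097), for siSCR and siMETTL3 libraries. FKBP5, a chaperone of steroid receptors, rose in 22Rv1 from 183 ± 6.27 to 1850 ± 71.4 CPM (log2 3.33, SE 0.067, edgeR adjusted p = 2.26e-19). STEAP4, a metalloreductase, rose there from 0.967 ± 0.780 to 6.57 ± 1.32 CPM (log2 2.76, edgeR adjusted p = 1.56e-06). In LNCaP:C4-2 STEAP4 was listed at 0 counts in siSCR vehicle libraries and at 2.79 ± 0.784 CPM with R1881. Of 17 targets of the oxidative stress factor NRF2, a regulator of the AKR1C genes, R1881 raised 2 and lowered 1 of 15 in LNCaP:C4-2 and raised 6 and lowered 0 of 16 in 22Rv1 siSCR libraries (8 and 0 with siMETTL3). In LNCaP:C4-2 siMETTL3 libraries it raised 1 and lowered 1. Their medians were 0.27 and 0.24 in siSCR libraries. Between the lines 3 of these 16 targets were higher and 10 lower in 22Rv1, beside 37.9% higher and 36% lower of all genes tested. The median of these targets was −0.62, beside 0.03 for all genes, and their part in the AKR1C results was not tested. siMETTL3 raised 1 androgen-responsive gene in LNCaP:C4-2 with vehicle and 1 in 22Rv1 with R1881, and raised 3 and lowered 1 of the NRF2 targets in 22Rv1 with R1881, with no call on these lists in the other siMETTL3 comparisons within a line. Between the lines the siMETTL3 effect with vehicle was lower in 22Rv1 for 1 androgen-responsive gene. Of the 25 marker genes, R1881 raised 4 and lowered 2 of 12 in LNCaP:C4-2 with either siRNA, and in 22Rv1 raised 0 and lowered 3 of 11 in siSCR libraries and raised 1 and lowered 4 in siMETTL3 libraries, while siMETTL3 lowered 1 in LNCaP:C4-2 with vehicle.

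The genes most like the members that varied most were sought among the named genes tested in both lines, over the 24 libraries after subtraction of each line's mean log2 CPM. For HSD17B11 they were SLC38A1 (r = 0.964), B2M (0.960) and TMED2 (0.958), with r of at least 0.941 within each line. For HSD17B6 they were SLC19A2 (0.878), SOAT1 (0.862) and PPM1K (0.851). For AKR1C2 they were TRAPPC4 (0.897), CFAP36 (0.873) and HSPA5 (0.871), with 0.982, 0.969 and 0.972 in 22Rv1 alone, the line with counts of AKR1C2. The 24 points are 8 groups of 3 libraries that share treatment, so these values describe likeness over the conditions of this experiment.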

How the data were processed

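RNA-seq libraries of the 24 samples were trimmed with Trim Galore, aligned with STAR to GRCh38 and counted per gene by the authors with featureCounts 1.5.0 against Ensembl release 83, and the deposited values are raw fragment counts. The file headers show no strand option, and by default featureCounts leaves out fragments with more than 1 alignment or on more than 1 gene.

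Gene IDs were given symbols from a reference table (56558 of 60675 matched). edgeR 4.0.16 (R 4.3.3) was used with TMM scaling, filterByExpr (minimum count 10, minimum total 15) and the quasi-likelihood test, with 1 mean per condition over the 12 libraries of a line (8 residual degrees of freedom) or, for comparisons of the lines, over all 24 (16). p-values were Benjamini-Hochberg adjusted over all genes tested. SE is the fold change divided by the root of F. CPM and FPKM were computed with TMM over all libraries, and FPKM also over MANE Select lengths, an alternative chosen after seeing the data. The fit was tested on simulated data. DESeq2 1.42.0, RLE scaling, library size alone, other filters, a replicate block, only the 6 libraries compared, no fold threshold and leaving out each library were tried. No 2 libraries were identical. Counting intervals are exact at 95%, and the limit a count of 0 allows is 3 counts.

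The members, the gene lists (other steroid enzymes, NRF2 targets, androgen response and cell type markers) and the tests were chosen with earlier results of these data known. The text names the members, METTL3, at most the 4 called list genes of largest change per comparison whose mean reached 1 CPM, and for the 3 members of largest range the 3 genes of highest correlation of log2(CPM + 1), among genes tested in both lines. Upstream sequences are RefSeq windows (GRCh38.p14), held for 8 of the 10 members.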

Additional observations from a re-analysis of the deposited data

Results flagged for a closer look

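For 3 members the R1881 response in siSCR libraries differed between the lines by a test of the difference itself (edgeR, adjusted over 19437 genes), each value being the 22Rv1 log2 response minus that of LNCaP:C4-2. SRD5A3 differed by 0.47 (adjusted p = 0.0296), lower with R1881 in LNCaP:C4-2 (−0.38) and at 0.09 in 22Rv1. HSD17B6 differed by −1.167 (adjusted p = 0.0194), at 0.80 in LNCaP:C4-2 and −0.37 in 22Rv1, neither of which passed alone. AKR1C1 differed by −1.283 (adjusted p = 0.0426), with 2 to 13 counts a library on the LNCaP:C4-2 side. AKR1C1 was not tested within LNCaP:C4-2 and entered this test only through its 22Rv1 counts. With 1 library left out, the call of SRD5A3 held in 3 of 12 fits, that of HSD17B6 in 10 and that of AKR1C1 in 7.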

How the results depend on the processing

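Of the 7 called R1881 responses, 2 were called under every alternative and with every library left out, those of HSD17B11 in LNCaP:C4-2 siSCR and 22Rv1 siMETTL3 libraries, and none of the 7 changed sign. For R1881 in LNCaP:C4-2 siSCR libraries, 1 member was called, against 2 with DESeq2, 2 without a filter, 2 with at least 10 counts in every library, 3 without a fold threshold and 1 to 2 with a library left out. In LNCaP:C4-2 siMETTL3 libraries 2 were called, and 1 to 2 with a library left out. In 22Rv1 siSCR libraries 1 was called, against 0 with library size alone, 4 without a fold threshold and 0 to 2 with a library left out. In 22Rv1 siMETTL3 libraries 3 were called, against 2 with library size alone, 2 with at least 10 counts in every library, 2 with only the 6 libraries compared, 5 without a fold threshold and 2 to 3 with a library left out. siMETTL3 in 22Rv1 with R1881 called 0, and 1 without a fold threshold. The difference of the lines in R1881 response called 3, against 1 without a filter and 0 to 3 with a library left out, and the lines with vehicle differed in 7, against 8 with DESeq2, 8 with RLE, 8 without a filter, 5 with at least 10 counts in every library and 6 to 7 with a library left out. Beyond the construction of these settings the cause was not tested. For R1881 in LNCaP:C4-2 siSCR libraries DESeq2 called 2523 of all genes, against 2484 by edgeR. Library size alone called 2555 and 2488 in 22Rv1 siSCR and siMETTL3 libraries, against 2471 and 2406. Between the lines with vehicle DESeq2 called 14390 and RLE 14358, against 14360. For the other settings no share of all genes is given, so their member numbers only show how calls move with the setting. The replicate block gave the same numbers of called members (1, 2, 1 and 3 for R1881, 0 for siMETTL3, 7 between the lines and 3 for their R1881 responses), while the SRD5A1 responses in siSCR libraries no longer passed the adjusted p (0.0536 and 0.0522). Replicate numbers did not pair the samples: deviations of same-numbered libraries correlated at −0.017 on average in LNCaP:C4-2 (−0.478 to 0.316) and −0.008 in 22Rv1 (−0.344 to 0.251).

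Over all genes, DESeq2 called 380 for siMETTL3 in LNCaP:C4-2 with vehicle against 197 by edgeR, 521 against 115 with R1881, 60 against 0 for the LNCaP:C4-2 interaction and 322 against 89 for the lines' siMETTL3 effects. Higher genes made 62.4% of calls by DESeq2 against 40% for siMETTL3 in LNCaP:C4-2 with R1881, and 30.4% against 19.1% for the lines' siMETTL3 effects. Library size alone moved the median of all genes by −0.118 for R1881 in LNCaP:C4-2 siSCR libraries (34% of calls higher, against 48.9%) and by 0.148 between the lines. Depth limits HSD17B2, HSD3B1 and, in LNCaP:C4-2, AKR1C1 and AKR1C2.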
